A study of Bos taurus with 12 samples.

Results

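In the medium methylated DNA of Angus longissimus muscle, 4466 autosomal regions held a peak in both libraries of tender beef (MTE_1 and MTE_2) and in no library of tough beef (MTO_1 and MTO_2). They were found among 50592 regions, which were made by joining the peaks of these 4 libraries wherever they shared 1 bp or more on chromosomes 1 to 29, so 8.83% of the regions met this rule. The regions were chosen by the peak calls of the medium libraries, and they are called tender-specific here in that sense alone.

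The DNA came from Angus steers slaughtered at around 12 months of age and kept at the same time on one pelleted diet. Tender and tough beef came from the animals with the lowest and the highest shear force of the aged meat, and 2 animals drawn at random from each group gave the DNA, taken from fresh tissue. The paper reports that crude fat content also differed significantly between the groups, so shear force and fat cannot be told apart here. Each capture was eluted in 3 salt steps, which gave high (HTE, HTO), medium (MTE, MTO) and low (LTE, LTO) methylated DNA of tender (TE) and tough (TO) beef with 2 libraries per condition, and no input library was used as control. The sources differ on which salt concentration released the high and which the low methylated DNA, so the libraries are named by the methylation level in their titles. The muscle is named longissimus dorsi in the sample labels and longissimus lumborum in the methods. Peak lists hold no expression values, so the tissue was not checked against marker genes, and genes and sequences under the regions were not analysed here.

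DNA methylation in mammals sits mainly on the cytosine of CpG dinucleotides. It is known for silencing transcription when it covers CpG-rich promoters and for being common in gene bodies and repeats. MBD-seq captures sheared DNA with a methyl-CpG binding protein, which holds a fragment more firmly the more methylated CpGs it carries, so the salt steps separate fragments by methylated CpG content. A region can therefore be recovered in more than one eluate, and its pattern over the eluates was the question here. In a piece of whole muscle, fewer cells with a methylated region and fewer methylated CpGs per molecule cannot be told apart.

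The depth behind the peaks was 3677473 to 7981292 tags per library after removal of duplicates. The tender medium libraries kept more tags (6589423 and 6886676) than the tough ones (6010993 and 5969045) and had more autosomal peaks, 33562 and 35688 against 23982 and 24797. Their part in the number of tender-specific regions was not tested. When every medium library gave the same number of peaks, 1983 regions met the rule. Among the low libraries, LTE_1 stood apart with 9555 autosomal peaks, against 16881 in LTE_2 and 27783 and 28599 in LTO.

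The tender-specific regions were weak to moderate peaks in the libraries that defined them. The pileup, the number of tags stacked at the summit of a peak, had a median of 11 in MTE_1 (range 5 to 243) and of 11 in MTE_2 (range 5 to 237). Of the 4466 regions, 2154 had 8 to 10 tags in their weaker MTE peak and 568 had 7 or fewer. The fold enrichment over the local background, taken as the lower of the 2 MTE libraries, had a median of 6.39 and reached from 1.54 to 14.0. Most regions consisted of 1 peak from each MTE library. Their median width was 221 bp, with the central part between 193 and 260 bp (the quartiles). The median was 230 bp in all other regions and 270 bp in the 4848 regions with peaks in both MTE libraries and in 1 MTO library, the class most like them. These values belong to the contrast that chose the regions and are given as a description.

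The strongest tender-specific regions by this measure stood well clear of the local background. At chr24:11096587-11096816 (bosTau8, 230 bp) the pileup was 19 in MTE_1 and 21 in MTE_2, with fold enrichments of 14.0 and 15.8. The same region had peaks with pileups of 8 in LTE_1, 11 in LTO_1 and 10 in LTO_2, and no peak in LTE_2 or in any high library. Thus its low methylated DNA was recovered from both kinds of beef.
The pileup at chr3:83718358-83718601 was 18 and 19 tags in MTE, with 10 and 8 tags in LTE and 11 and 14 tags in LTO, again without a high peak. The region at chr6:74232272-74232513, with 17 and 16 tags in MTE, had no peak in any of the 8 high and low libraries. Only the merged LTO list, called on the reads of both LTO libraries together, held a peak there besides the merged MTE list, with a pileup of 10. The other 3 of the 6 regions with the highest enrichment, at chr21:5679220-5679491, chr12:80626664-80626863 and chr14:22260049-22260304, had peaks in 3, 2 and 3 of the 8 libraries, and every one of these was a low library. The merged lists added high peaks of 10 tags in HTO at the first and 12 tags in HTE at the last of these. Of the 6 regions, 4 had a merged MTO peak, of 11, 14, 14 and 12 tags.

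The rule turns on whether a peak passed the threshold of the authors' caller, a q-value of 0.01, or 2 on the −log10 scale. Just inside it, the region at chr12:31054346-31054673 had a −log10 q of 6.15 in MTE_1 and 2.17 in MTE_2, with 9 and 5 tags. At chr17:65580648-65580821 the values were 2.31 and 4.70, with 5 and 7 tags. Just outside, chr6:4369816-4370338 was lost to an MTO_2 peak of 5 tags and −log10 q 2.57, and chr11:105239658-105239899 to an MTO_2 peak of 8 tags and −log10 q 2.85. The tags of the single MTO libraries at the regions inside were not measured, since no peak was called there. The merged MTO list held a peak of 8 tags at the region on chromosome 12, where merged MTE had 13, and none at that on chromosome 17.

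The merged lists were called on the reads of both replicates together and showed what the single tough libraries missed. Of the tender-specific regions, 2950 (66.1%, Wilson 95% interval 64.7 to 67.4%) had a peak in the merged MTO list, against 78.9% of all medium regions. That background rests largely on regions with a peak in an MTO library, nearly all of which the merged list holds again. With both MTE and 1 MTO peak the share was 99.4%. Among the regions with 1 MTE and no MTO peak, which also lack one, it was 40.9%, below the tender-specific share. This list was made from the reads the rule had used, so the share is a description and no independent measure. The other 1516 regions (33.9%) had no peak even in the merged MTO list, whereas in the class with both MTE and 1 MTO peak 30 regions had none. Merged peaks rested on 11269317 tags in MTE and 9400764 in MTO.
For the 2950 regions with both merged peaks, the median pileup was 20 tags in MTE and 11 in MTO, or 1.77 and 1.17 when divided by the tags kept and given per 1000000 tags, which is called the relative pileup here. The median log2 ratio of the relative pileup of MTE over MTO was 0.57, a 1.48-fold difference, and 377 of these regions (12.8%) exceeded 2-fold. MTE was higher in 2738 of them (92.8%). In the regions with both MTE and 1 MTO peak the median log2 ratio was 0.22, and in those with all 4 medium peaks it was -0.26. Where both merged lists had a peak, most tender-specific regions therefore differed less than 2-fold between the merged lists.

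**Figure D1:**
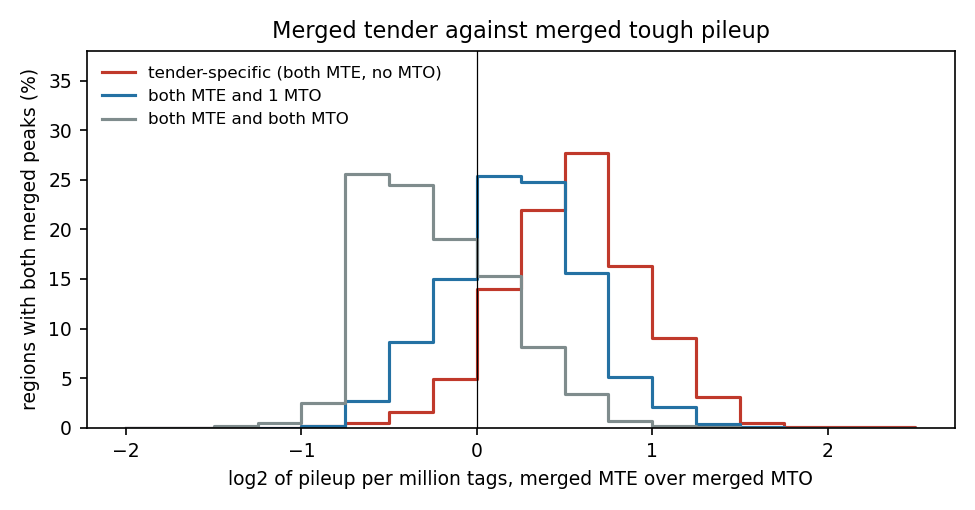
Share of regions (y axis, %) by the log2 ratio of the relative pileup (pileup per 1000000 tags kept) in the merged MTE list over the merged MTO list (x axis), for regions with a peak in both merged lists. Tender-specific regions (red, 2950 regions) centre on 0.57, regions with both MTE and 1 MTO peak (blue) on 0.22 and regions with all 4 medium peaks (grey) on -0.26; the ratio is part of the contrast that chose the regions.

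The high methylated libraries took no part in the rule, and the tender-specific regions were scarce in them. A peak was present in 145 regions (3.25%) in HTE_1, 244 (5.46%) in HTE_2, 111 (2.49%) in HTO_1 and 166 (3.72%) in HTO_2. The same libraries had a peak in 22.6%, 26.2%, 21.1% and 24.5% of all other medium regions. In every high library the share was thus well below that of the other regions, between 0.118 and 0.208 of it.
The difference was -19.9 ± 1.06 percentage points (SD, n = 4 libraries). A two-sided exact sign-flip test over the libraries gave p = 0.13, which is the lowest value 4 libraries can give, and 0.25 after Benjamini-Hochberg adjustment over 4 tests. With MTE_1 or MTE_2 left out of the rule the difference was -31.6 and -31.8 points. Against the regions with both MTE and 1 MTO peak, the share was lower in 4 of 4 high libraries, by -9.99 ± 2.41 points (SD, n = 4, exact sign-flip test, p = 0.13). The 14973 regions with 1 MTE and no MTO peak had still fewer high peaks, with mean shares of 1.91% in HTE and 1.33% in HTO, so a low share was not particular to regions with both MTE peaks. In all, 4028 tender-specific regions (90.2%) had no peak in any high library and 24 had one in all 4. Where a high peak was present its median relative pileup was 2.43 and 2.48 in HTE and 2.45 and 2.69 in HTO.

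**Figure D2:**
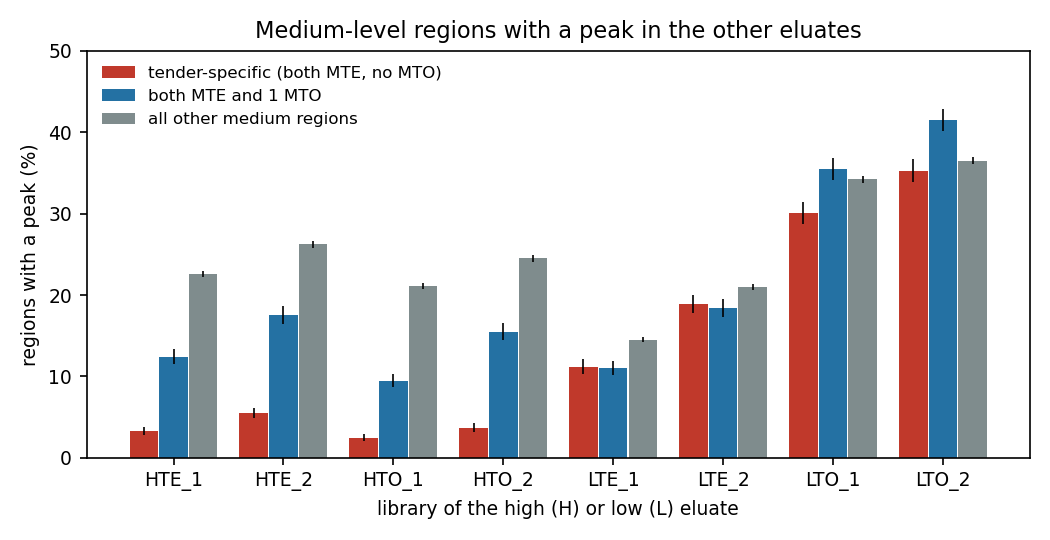
Share of regions with a peak (y axis, %) in each of the 8 libraries of the high and low eluates (x axis) for tender-specific regions (red), regions with both MTE and 1 MTO peak (blue) and all other medium regions (grey), with Wilson 95% intervals that cover counting error only. In the high libraries the red bars lie between 2.49 and 5.46%, below both other classes, and in the low libraries the classes lie closer together.

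Tender and tough high libraries differed in these regions by less than their spread. After the share of all other regions was taken off, the tender-specific regions lay at -20.0 ± 0.999 points in HTE and -19.7 ± 1.51 in HTO (SD, n = 2). The difference of -0.34 points lay within the spread of the replicates (two-sided exact permutation test, p = 1, where 2 libraries against 2 cannot go below 0.333). Its direction changed with how the share of the other regions was taken off, from -0.34 points to a log2 ratio of 0.37.
By region, 32 tender-specific regions (0.717%) had a peak in both HTE libraries and no HTO library, where 1.14% of all medium regions did. The opposite pattern, both HTO and no HTE, was found in 5 regions (0.112%), where 0.538% of all regions had it. Both shares were below the background. In the class with both MTE and 1 MTO peak the counts were 89 and 27 of 4848 regions.

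Most of the single regions named for these patterns had high peaks of moderate height. The pileup at chr22:60425504-60425735 was 19 and 14 tags in MTE and 17 and 23 tags in HTE, and no single tough library had a peak. The merged tough lists did, with 15 tags in MTO and 18 in HTO. At chr13:6253945-6254214 the pileup was 10 and 18 in MTE and 11 and 15 in HTE. No merged or single list of tough beef at any level held a peak there, nor did the LTE lists, so this region was called in tender beef alone.
At chr3:47218875-47219107 the HTE pileup reached 77 and 91, and the low libraries had 44, 48, 51 and 38 tags, in the order LTE_1, LTE_2, LTO_1 and LTO_2. The merged HTO list held 32 tags there. The merged MTE list held 174 tags, against 23 and 28 in the single MTE libraries. A region takes the highest value of any peak that overlaps it, so such values can come from a summit outside it. Where the summits lay was not checked for this region. The reverse case is given by chr23:51501725-51501998, with 13 and 13 tags in MTE, 9 and 12 in HTO and none called in single HTE libraries. The merged HTE list had a peak of 13 tags at that place.

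The tender-specific regions were more often recovered in the low methylated DNA, where 2403 (53.8%) had a peak in at least 1 library, against 438 (9.81%) in the high methylated DNA. Over all medium regions 51.0% had a low and 31.9% a high peak in at least 1 library, so the low share was near the background by this count. That background mixes classes. A low peak was present in 79.9% of the regions with all 4 medium peaks and in 58.9% of those with both MTE and 1 MTO peak. In the regions with 1 MTE and no MTO peak the share was 33.9%. A low peak was present in 497 tender-specific regions (11.1%) in LTE_1, 843 (18.9%) in LTE_2, 1341 (30.03%) in LTO_1 and 1576 (35.3%) in LTO_2. Both tough libraries were thus above both tender libraries, and the same order was seen in all other medium regions, with 14.5% and 21.0% in LTE and 34.2% and 36.5% in LTO. The difference between tender-specific and other regions was -2.71 ± 1.31 points over the 4 libraries (SD, n = 4, exact sign-flip test, p = 0.13, and 0.25 after the same adjustment). It turned to 0.538 points when only peaks of at least 3-fold enrichment were used, and was -17.2 and -15.9 points without MTE_1 and MTE_2. Against the other regions with both MTE peaks the difference was -22.9 points. With a limit of 30 tags for the weaker MTE peak, chosen after the pileups were seen, it was -10.7 points. Against the regions with both MTE and 1 MTO peak, the share was lower in both LTO libraries, by -5.49 and -6.19 points, and higher in both LTE libraries, by 0.155 and 0.477 points. The mean over the 4 libraries was -2.76 ± 3.57 points (SD, n = 4, exact sign-flip test, p = 0.5).

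After the other regions were taken off, LTE lay at -2.73 ± 0.91 points and LTO at -2.70 ± 2.09 (SD, n = 2), a difference of -0.03 points that was within the spread (exact permutation test, p = 1). This value depended on the regions compared. Against the other regions with both MTE peaks the difference was 7.5 points, and for the tender-specific regions without a merged MTO peak it was 5.52 points (exact permutation tests, p = 0.333 each, as low as 2 against 2 can go). Without LTE_1 it was 0.611 points, without LTO_2 1.44, without MTE_1 8.0 and without MTE_2 7.14. It was negative without LTE_2 (-0.678), LTO_1 (-1.51), MTO_1 (-1.69) and MTO_2 (-2.54), so the direction was not kept. The low eluate of tough beef was then examined for the regions that its medium libraries lacked. A peak in both LTO and no LTE library was found in 324 tender-specific regions (7.25%, Wilson 95% interval 6.53 to 8.05%), and in 7.32% of all medium regions, so the share was near the background. That background mixes classes, with 10.3% in the regions with both MTE and 1 MTO peak, 12.4% in those with all 4 medium peaks and 3.61% in those with 1 MTE and no MTO peak. The opposite, both LTE and no LTO, was found in 18 regions (0.403%) where 0.231% of all regions had it. These counts rest on thresholds in 4 libraries, and when the libraries within each eluate gave equally many peaks, which also left 1983 tender-specific regions, the first share was 0.958%. Without LTO_1 or LTO_2 it was 20.7% and 17.3%, since 1 peak was then enough. The share over all medium regions was not counted under these settings. Whether the tender-specific regions moved against the background is therefore not known.

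Among the 324 regions, chr27:29790686-29790884 had 11 and 10 tags in MTE and 12 and 12 in LTO, and the merged MTO list held 10 tags. At chr13:56698982-56699157 the pileup was 9 and 11 in MTE and 13 and 11 in LTO, and the merged MTO and LTE lists held 8 tags each. The third region of this pattern, chr14:80895841-80896197, had 14 and 20 tags in MTE and 12 and 11 in LTO and no merged MTO peak. Among the 18 opposite regions, chr1:69958982-69959558 had 10 and 8 tags in MTE, and its LTE peaks reached 13 and 17 tags. In the merged LTO list a peak of 7 tags was called there, and no MTO list held a peak.

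Where a region was recovered in all 4 low libraries, the height of its peaks could be compared between tender and tough beef in libraries that the rule had not used, although they came from the same animals. There were 220 such tender-specific regions. A called peak has a lowest height, and on the relative pileup this floor was unequal. In all other medium regions it was 0.866 in LTE_1, 0.698 in LTE_2, 0.626 in LTO_1 and 0.693 in LTO_2. The part of this floor in the order of weak peaks was not tested. The median relative pileup of the 220 regions was 3.99 in LTE_1, 3.77 in LTE_2, 3.01 in LTO_1 and 3.05 in LTO_2. Both tender libraries were thus above both tough libraries (exact permutation test over libraries, two-sided, p = 0.333, which is as low as 2 against 2 can go). The order of the medians was not kept on the other scales, with 23, 27, 24 and 22 tags on the pileup as deposited and 6.08, 6.28, 5.61 and 6.15 on the fold enrichment, in the same order of libraries. All other medium regions with 4 low peaks had relative pileups in the opposite order, with 14.0 and 14.0 in LTE and 17.7 and 16.2 in LTO.
Counted by region, both LTE values exceeded both LTO values in 99 of the 220 regions (45.0%), where 14.5% of all 5043 medium regions with 4 low peaks did so. The reverse was found in 21 regions (9.55%), against 45.6% of all. The class with both MTE and 1 MTO peak lay between on this scale, with 58 (25%) and 37 (15.9%) of its 232 regions. The regions with 1 MTE and no MTO peak were close to the tender-specific ones, with LTE higher in 66 of 173 (38.2%) and LTO higher in 16 (9.25%). The order was therefore shared by regions without an MTO peak, whether 1 or 2 MTE libraries had called them. Of the 9 regions with both MTO and no MTE peak, LTE was higher in 3 and LTO in 2, too few to place this class. The background rests largely on the 4264 regions with all 4 medium peaks, where LTE was higher in 11.3% and LTO in 51.3%.

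The share of regions with higher LTE values depended on the scale. On the pileup as deposited, not divided by tags, both LTE exceeded both LTO in 29 of the 220 regions (13.2%), against 2.22% of all, and the reverse was found in 40 (18.2%) against 65.6%. On the fold enrichment, which each library takes over its own local background, the counts were 78 (35.5%) against 16.9% and 25 (11.4%) against 21.2%. Tender-specific regions were above the background in the first direction and below it in the second on each of the 3 scales. The class with both MTE and 1 MTO peak lay between on the deposited pileup, with 3.88% and 31.9%. On the fold enrichment it did not, with 16.4% in the first direction and 25% in the second. Restricted to regions whose weaker MTE peak had 30 tags or less, a limit chosen after the pileups were seen, LTE was higher in 51 of 130 tender-specific regions (39.2%) and in 30 of 182 regions of the class with 1 MTO peak (16.5%). The median relative pileups of the 130 regions were 2.17 and 1.95 in LTE and 1.63 and 1.94 in LTO, so LTE_2 and LTO_2 hardly differed. Among the regions over 30 tags these shares were 53.3% of 90 and 56.0% of 50. Without MTO replicate 2 the share of 45.0% was 36.5%, and without LTE replicate 2, without LTO replicate 1 and without LTO replicate 2 it was 57.7%, 51.9% and 61.3%, where fewer libraries had to be in order in the last 3. The background was not counted with a library left out.

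**Figure D3:**
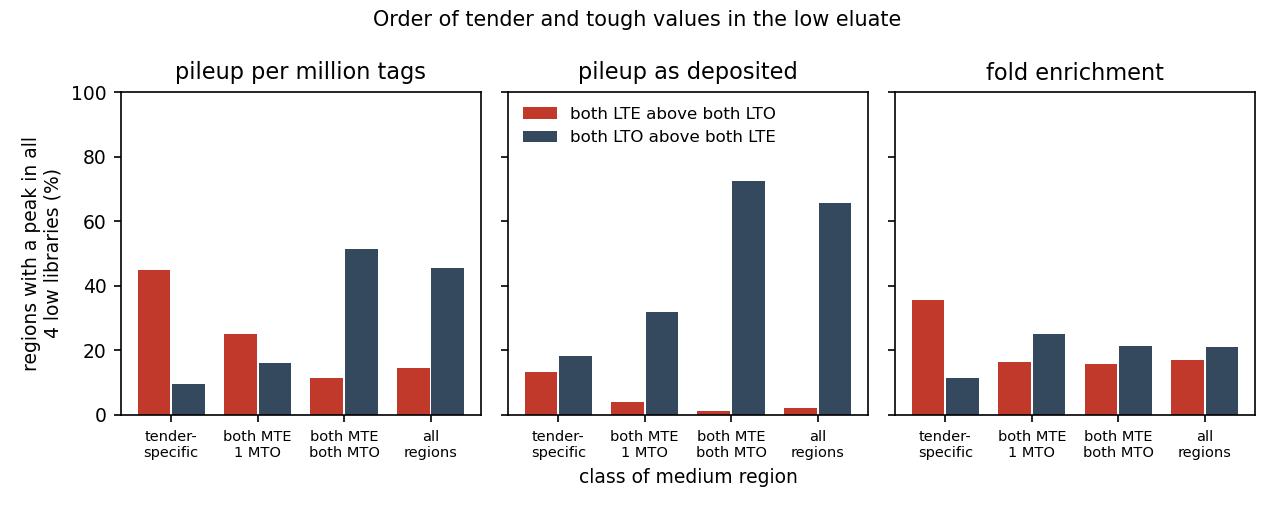
Among medium regions with a peak in all 4 low libraries, the share (y axis, %) in which both LTE values exceeded both LTO values (red) or the reverse (dark), by class of region (x axis) and on 3 scales. On the relative pileup (per 1000000 tags) 45.0% of the tender-specific regions had LTE above LTO, against 14.5% of all regions, and on the deposited pileup 13.2% against 2.22%.

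Among the high libraries the matching set was small. Only 24 tender-specific regions had a peak in all 4 high libraries, with median relative pileups of 3.98 in HTE_1, 4.34 in HTE_2, 3.94 in HTO_1 and 4.57 in HTO_2. The tender and tough values overlapped. HTE exceeded HTO in 2 of the 24 regions (8.33%, against 4.69% of all 7222 regions with 4 high peaks) and HTO exceeded HTE in 7 (29.2%, against 61.4%).

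Over the 8 high and low libraries together, 1781 tender-specific regions (39.9%) had no peak in any, close to the 37.8% of all other regions. Peaks in low libraries alone were found in 2247 (50.3%), in high libraries alone in 282 (6.31%) and in both in 156 (3.49%). In all other regions these shares were 28.2%, 11.5% and 22.5%, and in the class with both MTE and 1 MTO peak 44.2%, 15.5% and 14.7%. Tender-specific regions thus had low peaks alone more often, and high peaks less often, than all other regions or that class. The regions with 1 MTE and no MTO peak had fewer of both. At least 1 low library had a peak in 33.9% of them and at least 1 high library in 4.04%, against 53.8% and 9.81% of the tender-specific regions.
A peak in all 8 was found in 1 tender-specific region, at chr28:30011995-30012253, in 7 regions with both MTE and 1 MTO peak and in 3264 (7.08%) of all other regions. The tender-specific one had 30 and 31 tags in MTE, 30 and 33 in HTE, 24 and 26 in HTO, 52 and 51 in LTE, and 70 and 58 in LTO, and the merged MTO list held 38 tags. Its fold enrichments were low, between 3.45 and 5.05 in the 10 single libraries with a peak.

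In the merged low lists the tender-specific share was above that of all other regions, 48.9% against 45.2% in LTE and 75.8% against 70.0% in LTO, whereas it was below in each single low library. In the merged high lists it was below, 16.8% against 39.9% in HTE and 9.52% against 33.7% in HTO. A merged low peak without a merged high peak was found in 2973 tender-specific regions (66.6%) and in 39.6% of all other regions. The most frequent pattern was a peak in the merged MTO, LTE and LTO lists, with 1113 regions (24.9%, against 13.9% of the others). A peak in the merged LTO and not the merged LTE list was present in 1403 regions (31.4%), where 29% of all medium regions had one. The opposite was found in 198 (4.43%, against 3.95%). At the high level, 491 regions (11.0%, against 10.1%) had a merged HTE peak alone and 167 (3.74%, against 3.88%) a merged HTO peak alone, so each of these shares was close to its background. No merged list other than MTE held a peak in 273 regions (6.11%), against 7.15% of all other regions.

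The 1516 tender-specific regions without a merged MTO peak had fewer peaks elsewhere than the 2950 with one. High peaks were present in 1.25% and 2.70% of them in HTE and in 1.45% and 1.98% in HTO, against 4.27%, 6.88%, 3.02% and 4.61%. In LTE their shares, 11.0% and 18.1%, were close to those of the regions with a merged MTO peak, 11.2% and 19.3%. In LTO they were lower, at 23.9% and 29.4% against 33.2% and 38.3%, so the gap lay in the tough libraries of the low eluate. No high or low library had a peak in 48.9% of the 1516 regions and in 35.2% of the 2950. The merged MTO list rests on the reads the rule had used, and these shares were not tested.

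High peaks were fewer than in the regions with 1 or 2 MTO peaks at every strength of the medium peak. Regions with both MTE peaks were divided by the pileup of the weaker MTE peak and those with an MTO peak compared with those without. The comparison regions join 2 unlike classes. Over all pileups the high shares were 58.4 to 67.8% with all 4 medium peaks and 9.45 to 17.5% with 1 MTO peak. The class with 1 MTO peak was not divided by pileup on its own. At 8 to 10 tags a high library had a peak in 2.09 ± 0.654% of the tender-specific regions and in 19.1 ± 4.31% of the regions with 1 or 2 MTO peaks (SD, n = 4 libraries). At 11 to 15 tags the shares were 5.38 ± 1.64% and 37.6 ± 5.98%. In the low libraries they were 23.3 ± 11.7% and 30.4 ± 17.0% at 8 to 10 tags. The spread here spans 9.61% in LTE_1 to 34.8% in LTO_2 of the tender-specific regions. Tender-specific regions were also narrower at equal pileup, with a median of 215 bp against 298 bp at 8 to 10 tags, and the part of width in these shares was not tested.

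**Figure D4:**
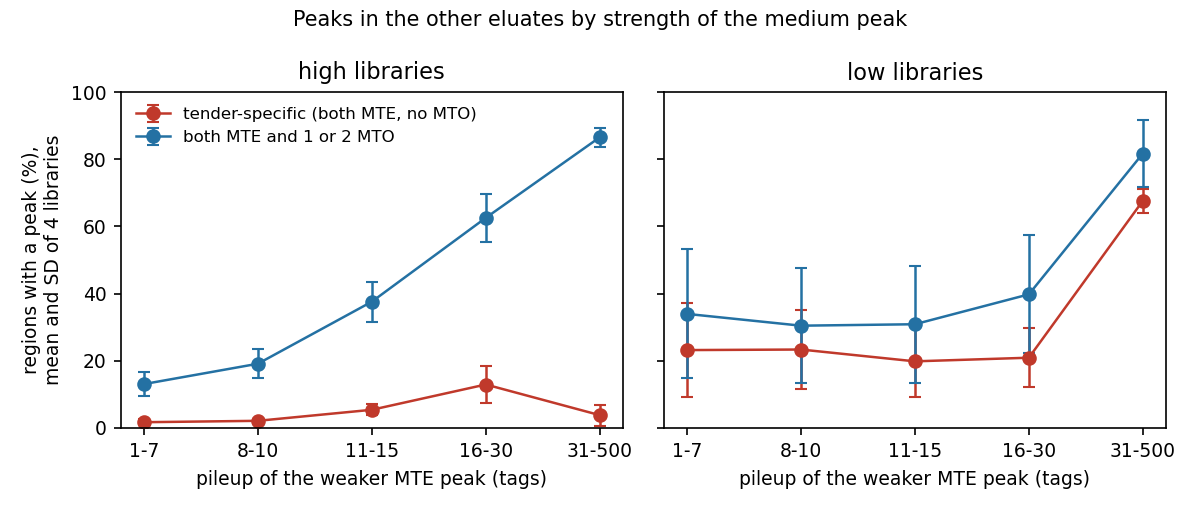
Mean share of regions with a peak (y axis, %; bars are the SD of 4 libraries) in the high libraries (left) and low libraries (right), by the pileup of the weaker MTE peak in tags (x axis), for tender-specific regions (red) and regions with both MTE and 1 or 2 MTO peaks (blue). In the high libraries the tender-specific regions stay at or below 12.9% while the other regions rise to 86.5%, and in the low libraries both rise in the last group, to 67.6% and 81.7%.

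A small group of tender-specific regions had very high pileups with little enrichment. In 172 regions (3.85%) the weaker MTE peak had more than 30 tags, and in 141 of these its fold enrichment was under 3, so these peaks stood little above the tags around them. Their median pileup was 128.5 in MTE_1 and 127.5 in MTE_2. The low libraries had peaks in 63.4%, 72.1%, 66.9% and 68.0% of them, in the order LTE_1, LTE_2, LTO_1 and LTO_2, and the high libraries in 0.581 to 6.98%. All 4 low libraries had a peak in 90 (52.3%), against 130 (3.03%) of the 4294 other tender-specific regions. Where they had a peak in the merged lists, the median pileups were 173 tags in MTE and 168 in MTO, and 71 of the 172 had no merged MTO peak. These medians are not divided by depth. Merged MTE kept 11269317 tags and merged MTO 9400764, so the higher MTE median in tags does not mean a higher relative pileup. Such peaks were commoner among the regions with both MTE and 1 or 2 MTO peaks, where 5311 (28.5%) exceeded 30 tags, 3330 of them under 3-fold, and low libraries had a peak in 68.8 to 90.5%. A place of this kind without an MTO peak can still be full of tags, since a peak is called only against its surroundings.
One example is chr27:28615936-28616237, with 171 and 149 tags in MTE, 99 and 103 in HTE, 95 in HTO_2 and 184 to 206 in the low libraries. Its fold enrichments were 2.22 and 2.06 in MTE.

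Tender-specific regions lay on all 29 autosomes. Of the 23091 regions with both MTE peaks they were 19.3%, with the lowest shares on chromosome 8 (11.9%) and chromosome 27 (12.1%) and the highest on chromosomes 19 (24.8%), 12 (24.5%) and 22 (24.1%). Regions on one chromosome come from the same 4 libraries and are not replicates, so the order is a description. They were spread thinly: 1512 of the 2521 windows of 1 Mb with a medium region held at least 1, with a median of 2 per occupied window and 63 windows with 10 or more.
The fullest window was on chromosome 22 from 60000001 to 61000000, with 20 tender-specific among 152 regions (13.2%). None of its 20 regions exceeded 30 tags in the weaker MTE peak, and 11 had no peak in any high or low library. The next were on chromosome 11 from 106000001 to 107000000, with 19 of 136, and on chromosome 17 from 74000001 to 75000000, with 19 of 148. A window of another kind, on chromosome 27 from 28000001 to 29000000, held 18 among 317 regions, of which 17 exceeded 30 tags and 13 had a peak in all 4 low libraries. It was named after its values were seen.

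**Figure D5:**
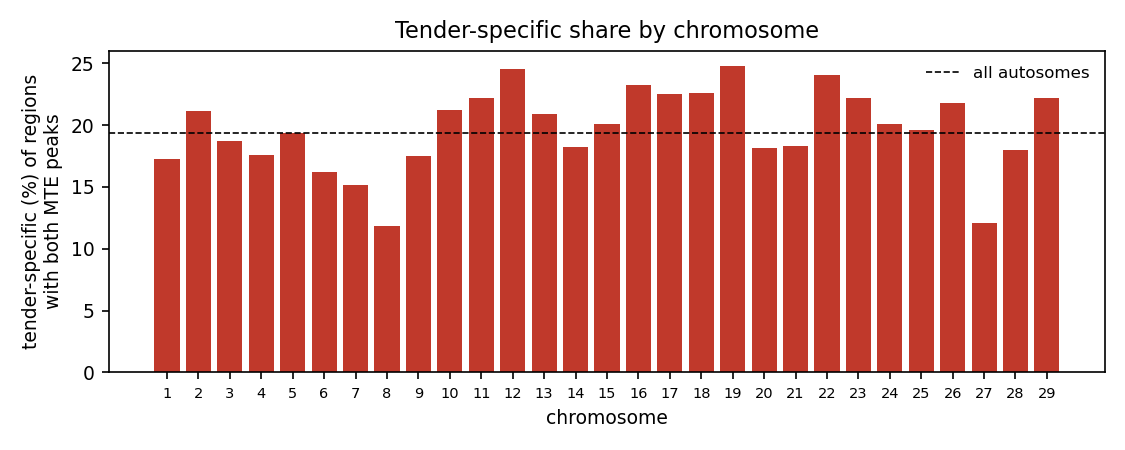
Share of tender-specific regions (y axis, %) among the regions with a peak in both MTE libraries, by autosome (x axis), with the share over all autosomes as a dashed line at 19.3%. Chromosomes 8 and 27 lie lowest, at 11.9 and 12.1%, and chromosome 19 highest, at 24.8%.

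The widest tender-specific region, chr6:109223570-109224430, measured 861 bp and had 23 and 24 tags in MTE, 17 and 20 in LTE and 16 and 20 in LTO, without a high peak. The merged MTO list held 17 tags there. The second, chr20:67744851-67745574, measured 724 bp, with 17 and 8 tags in MTE, 16 and 17 in LTE and 12 and 17 in LTO. Both were among the regions called in all 4 low libraries.
The tender-specific regions were also compared with the group-specific regions of another level, made by joining the peaks of that level on their own. They overlapped 32 of the 610 high regions with both HTE and no HTO peak (5.25% of that list). These were 0.717% of the tender-specific regions, while 1.14% of all medium regions had this pattern. The overlap with the 4628 low regions with both LTO and no LTE peak was 323 (6.98% of that list). It made up 7.23% of the tender-specific regions, near the 7.32% of all medium regions with this pattern. With both HTO and no HTE peak it was 4 of 283 (1.41%), or 0.0896% of the tender-specific regions against 0.538% of all. With both LTE and no LTO peak it was 19 of 250 (7.6%), or 0.425% against 0.231%. Of all medium regions, 8.83% were tender-specific.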

How the data were processed

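MBD-seq libraries of 2 tender and 2 tough animals at 3 methylation levels were used as deposited peak lists. Reads had been cleaned by the authors (SOAPnuke) and placed uniquely on bosTau8 (BWA 0.7.7). MACS2 then called peaks without a control, keeping at most 1 tag per position, at a threshold of 0.01 on q, per library (2.1.1.20160309) and on merged replicates (2.1.0.20150731). The deposited values are the pileup, a signal in tags not divided by depth, the fold enrichment, which is a ratio over local background, and the −log10 of the p-value and q-value.

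Regions and overlaps came from scripts in Python 3.11.15 (pandas 2.3.3, numpy 2.4.6; tests with scipy 1.17.1 and plots with matplotlib 3.10.9), and bedtools 2.31.1 gave the same regions. A region took the highest value of its overlapping peaks, whose summit lay inside it for 85.5 to 100% of peaks. Pileups were also given per 1000000 tags kept. In simulated data based on 23982 peaks of MTO_1, all 200 planted tender-specific regions were recovered. Libraries were compared by two-sided exact permutation or sign-flip tests. The 3 eluates of an animal share its DNA, and p-values measure the spread between libraries of 2 animals per group. Wilson intervals cover counting error only. The gene lists planned could not be applied without an annotation of bosTau8.

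The regions and tests were chosen with earlier results of these data known. Regions named are the 6 with the highest lower enrichment in MTE, the 4 in most other libraries, for each pattern between beef types the 3 with the highest lower enrichment, the 2 widest, 2 on each side of the threshold and the 2 fullest windows of 1 Mb, of which those that best show the values are printed. Alternatives changed the thresholds, overlap, joining, number of peaks (the strongest by p, in merged lists by q), chromosomes, libraries, pairing and comparison regions. Those for the pileups of the low libraries, and the limit of 30 tags, were added after the data were seen.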

Additional observations from a re-analysis of the deposited data

How the results depend on the processing

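The number of tender-specific regions stayed between 4151 and 4539 under the other peak thresholds, overlaps, joining and chromosomes. It was 1983 when each library gave equally many peaks and 6757 to 12506 without 1 medium library. Without MTE replicates 1 and 2 it was 12506 and 11552, since 1 MTE peak was then enough. Without MTO replicates 1 and 2 it was 6757 and 7083, since only 1 MTO library then had to lack a peak. The share in the merged MTO list was 63.4% at a −log10 q of at least 5, 70.8% with the same number of peaks and 50.3 to 78.4% without 1 medium library. The median width over that of other regions, 0.961, was 0.991 at 3-fold enrichment, 0.949 with peaks up to 500 bp apart joined, 0.921 with the same number of peaks and 0.607 to 1.07 without 1 library.

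The lower share in the high libraries kept its direction under each alternative. That in the low libraries turned to 0.538 points at 3-fold enrichment and was -22.9 points against the other regions with both MTE peaks. The difference between tender and tough, which lay within the spread, changed sign often. In the high eluate it was 0.0456 points at 3-fold enrichment, 0.640 with the same number of peaks, 1.25 for the regions' share alone, 0.37 as a log2 ratio and -1.41 to 0.731 without 1 library. In the low eluate it was 0.176 at −log10 q of at least 5, 0.0522 with 50% overlap, 1.93 with the same number of peaks, 0.0440 with chromosome X, 7.5 against regions with both MTE peaks, 5.52 for regions without a merged MTO peak and -2.54 to 8.0 without 1 library. The share with LTO and no LTE peaks was 5.12% at −log10 q of at least 5, 0.958% with the same number of peaks, 5.01% without a merged MTO peak and 4.89 to 20.7% without 1 library. Its background over all medium regions was not counted under changed thresholds, numbers of peaks or libraries. The share with LTE above LTO was 13.2% on the deposited pileup, 35.5% on fold enrichment and 36.5 to 61.3% without 1 library. Beyond these constructions the cause was not tested. With the replicate block the differences of tender and tough were -0.34 and -0.03 points as before (exact sign-flip test over 2 pairs, p = 1). Same-numbered tender and tough libraries are different animals, and their deviations over regions correlated at 0.0545 in the high and 0.00384 in the low eluate. With 2 libraries per group no test within an eluate can pass 0.05, and low peaks of 5 to 10 tags limit what can be seen in a single region.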

Other observations

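Chromosome X was outside the rule. Of its 1353 medium regions, 73 (5.40%) had a peak in both MTE and no MTO library, and 52 of these (71.2%) had a merged MTO peak. Low libraries had a peak in 36 of the 73 (49.3%) and high libraries in 12 (16.4%). On the autosomes the tender-specific shares were 66.1%, 53.8% and 9.81%. By library, the high shares on chromosome X were 11.0% and 12.3% in HTE and 2.74% and 6.85% in HTO. The shares over all medium regions of chromosome X were not counted.

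On the autosomes, an MTO peak that did not touch the region lay within 500 bp of 409 tender-specific regions (9.16%), against 7.83% of the regions with 1 MTE and no MTO peak. Of the 4028 regions without a high peak, 310 (7.70%) had a high peak within 1000 bp, against 7.18% of the regions with both MTE and 1 MTO peak that had no high peak of their own.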
